A study of Mus musculus with 2 samples.

Results

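Transcripts of potassium channel genes were described across the cell types of the mouse hippocampus. The genes are the rows of the deposited table whose symbol begins with Kcn, followed by lower-case letters, a number and at most 1 further letter, which takes in pore-forming and auxiliary subunits. There were 89 such genes among 30223 in the table. Of these, 62 reached a level of 0.2 per 10000 or more in at least 1 cell class and 27 did not; those above it are the ones described gene by gene. A level gives what part of all the values in a cell class belongs to the gene, per 10000.

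The mice were of the strain C57Bl.6/J and were either wild-type or homozygous for the knock-in allele Pigv341E, as the labels name it. Pigv encodes a mannosyltransferase that helps to build the GPI anchor, a lipid that holds many proteins at the cell surface. Both hippocampi of 4 mice per genotype were dissociated and pooled, so each genotype is 1 library, and the labels used here give neither age nor sex. Genotype and library cannot be told apart, no difference between the libraries carries a test, and the intervals below cover counting error only.

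Potassium channels let potassium ions cross the membrane and pull the membrane potential back towards rest. Voltage-gated (Kv) channels repolarise the neuron after a spike and set how often it can fire, calcium-activated channels couple firing to calcium entry, and inward rectifiers and two-pore channels set the resting potential. Inward rectifiers of astrocytes take up potassium that active neurons release. Auxiliary subunits form no pore and change the gating, trafficking or amount of the channels they bind. In the hippocampus the subunit makeup differs between principal cells, interneurons and glia and gives each its firing or buffering properties.

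The sequence shared by the pore-forming members is the selectivity filter, a short run of codons in the pore loop. It was searched in frame on the coding strand as ACNNNNGGNTANGGN, TCNNNNGGNTANGGN or AGNNNNGGNTANGGN, and as the same 3 forms with GGNTTNGGN in place of GGNTANGGN. A run of this kind was present in the coding sequence of all 63 pore-forming members and all 10 modifier members (silent Kv subunits, which act only together with a Kv2 subunit), in 0 of 16 auxiliary members, and in 3.62% of 21562 coding genes. The members on which the results below turn are shown, 5′ to 3′, with the 15 bases of the run in capitals (GENCODE M21 transcripts, GRCm38):
Kcnq3: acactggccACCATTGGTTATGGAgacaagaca
Kcnc2: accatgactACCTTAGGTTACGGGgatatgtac
Kcnb2: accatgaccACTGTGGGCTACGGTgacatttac
Kcnh7: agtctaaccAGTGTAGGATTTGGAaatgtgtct
Kcnj13: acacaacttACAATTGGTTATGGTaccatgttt
Kcnj8: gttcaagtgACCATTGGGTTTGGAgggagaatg
Kcnk10: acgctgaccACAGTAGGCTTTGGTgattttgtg
These stretches lie at chr15:66023722-66023754, exon 6, minus strand (Kcnq3), chr10:112456220-112456252, exon 3, plus strand (Kcnc2), chr1:15710037-15710069, exon 2, plus strand (Kcnb2), chr2:62777334-62777366, exon 8, minus strand (Kcnh7), chr1:87389012-87389044, exon 2, minus strand (Kcnj13), chr6:142566439-142566471, exon 3, minus strand (Kcnj8) and chr12:98440596-98440628, exon 5, minus strand (Kcnk10, the later of its 2 runs), all within coding exons. Kcnh7, Kcnj8 and this run of Kcnk10 hold the form GGNTTNGGN and the other 4 hold GGNTANGGN. As their name says, two-pore members can hold the run more than once: 10 of 13 did, and Kcnk1, Kcnk6 and Kcnk7 matched at 1 run. The Kv1 member Kcna6 also matched at 2 places, codons 240 and 422, so a further match is not particular to two-pore members. A match alone does not show a pore loop.

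The libraries held 7094 wild-type and 8836 knock-in cells with whole-number, depth-corrected values that summed to 4846 to 14501 per cell. The medians were 8631 in wild-type and 9608 in knock-in cells, with 3122 and 3736 genes above 0 and 0.123 and 0.219% mitochondrially encoded values, and 28 cell barcodes occurred in both libraries. Clustering without the potassium channel genes gave 37 clusters, and classes were named from marker genes alone, which is what "-like" means below. Levels are given for 16 classes. Of these, 14 had at least 50 cells in each library and were compared between libraries. Endothelial-like (25 wild-type and 41 knock-in cells) and pericyte-like cells (27 and 49) were too few for that. As a yardstick for free RNA, 10 neuronal transcripts were followed. They stood in the 8 non-neuronal classes at medians of 20.1 to 54.1% of their mean level in the neuronal classes. Whether free RNA, the doublets that were kept or low expression gave these levels was not tested, and free RNA below means this yardstick. A neuronal channel gene at such a level in glia is read as background. Values are not per length, so levels are compared for 1 gene across classes, never between genes.

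The members were ordered by class much the same way in both libraries. The highest class was the same in 56 of 62 members, against 66.4% of the 12680 genes at the same level limit. As a description across the 16 classes, with no test, Pearson's r between the libraries' log2 levels of a gene ran from 0.820 to 0.997 with a median of 0.948; the points share the libraries and their depth. The highest class was a neuronal one for 36 of the 62 members, against 39.2% of the 12680 genes. The mean of the 8 neuronal classes was at least 2-fold that of the other 8 classes in both libraries for 23 members, against 7.12% of all genes, and the reverse held for 4 members (Kcne2, Kcnj10, Kcnj8 and Kcnk13), against 11.4%. The summed level of all 89 genes was highest in CA1-like neurons in the wild-type library (242 and 217 per 10000; pairs of values are wild-type first, knock-in second) and in Cajal-Retzius-like cells in the knock-in library (239 and 240.3), and lowest in choroid plexus-like cells (37.6 and 46.1).

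**Figure D1:**
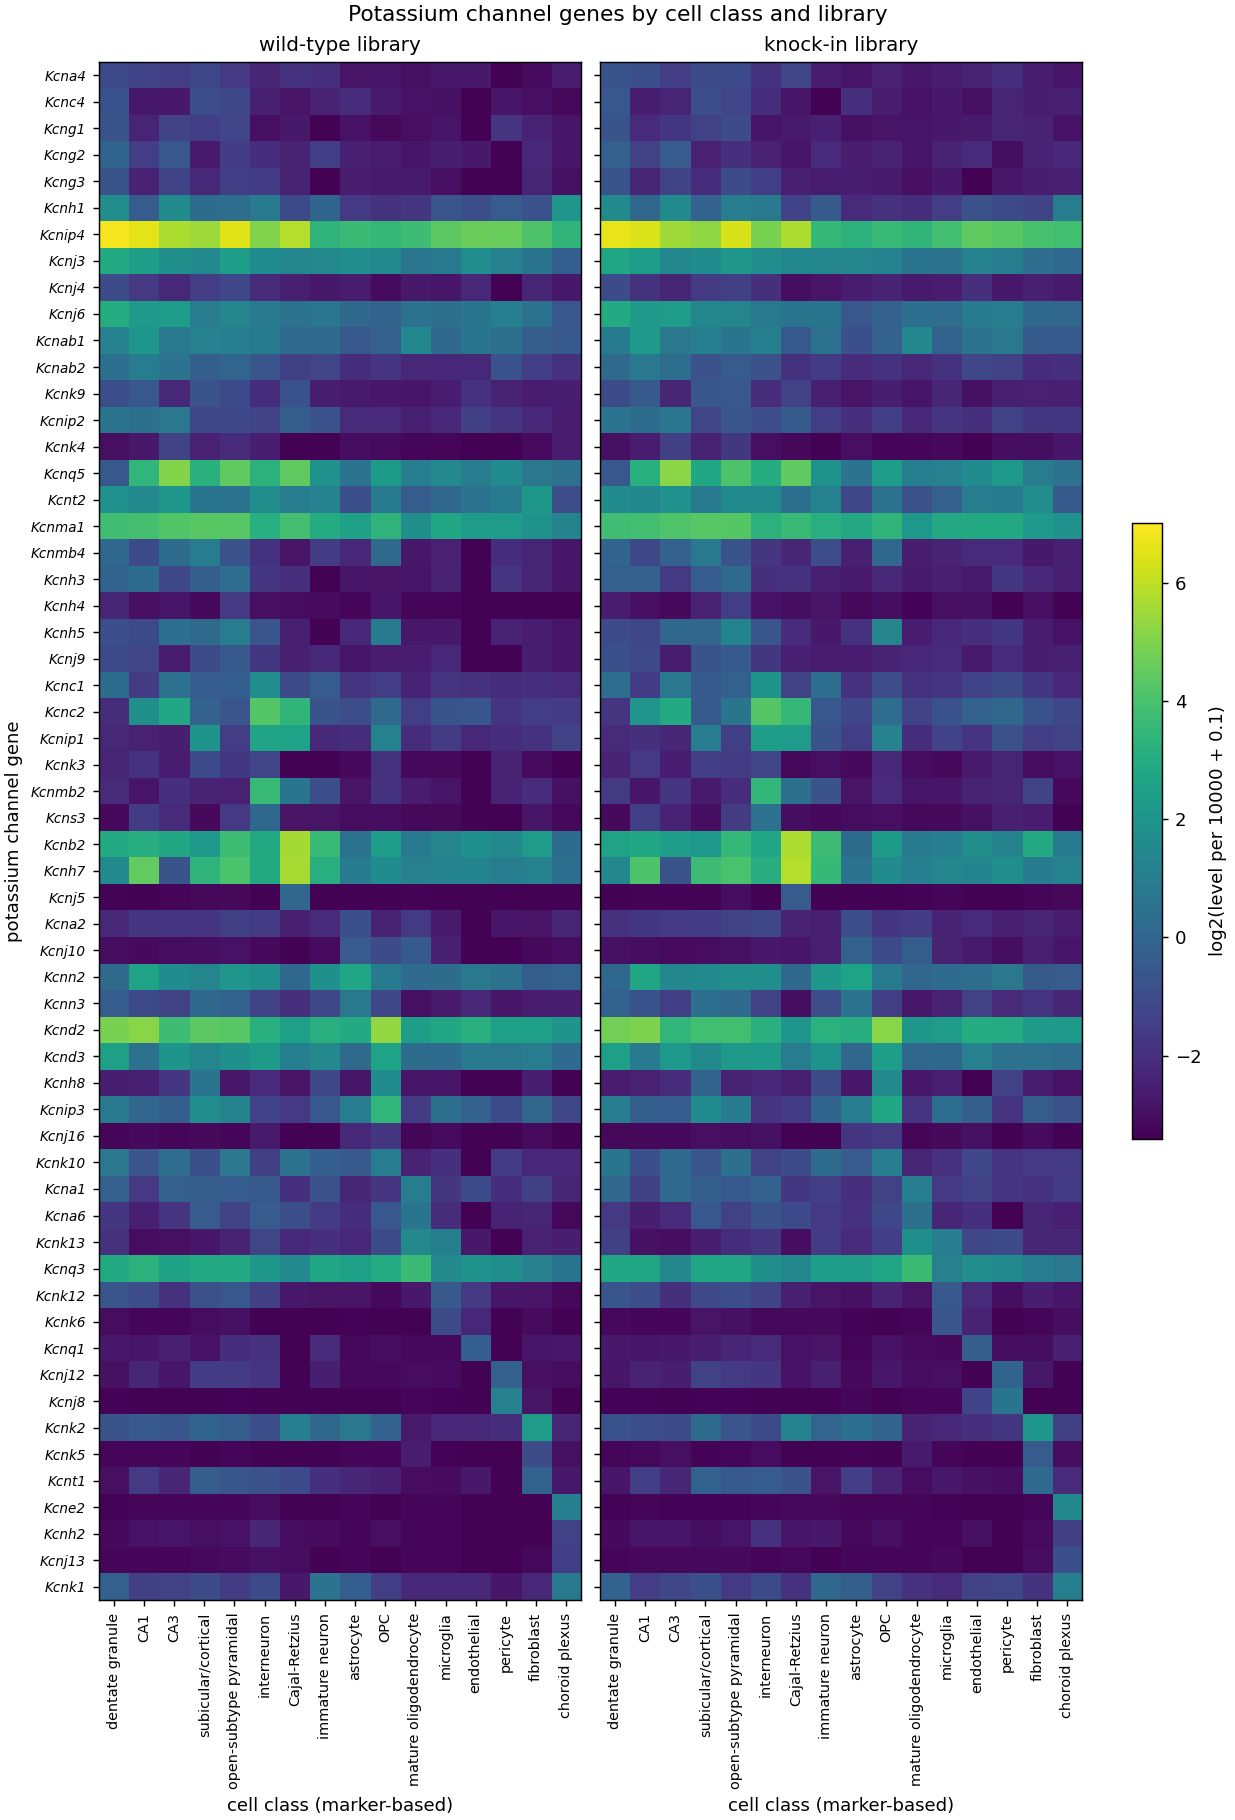
Level of 58 potassium channel genes at 0.2 per 10000 or more (rows, ordered by their highest class) in 16 marker-based cell classes (columns), as log2 of the level per 10000 plus 0.1, in the wild-type library (left) and the knock-in library (right). The highest class is the same in both panels for 53 of these 58 genes, and single bright cells mark the genes of 1 class, such as Kcne2 in choroid plexus.

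A member was given a class preference when its highest class was at least 2-fold the next, with 0.1 added, in each library and was the same class in both. This held for 15 of 62 members, beside 15.7% of all genes at the level limit, and nothing particular to the members is read from it. The preferred classes were interneuron-like cells (Kcnmb2, Kcns3, Kcnc1), Cajal-Retzius-like cells (Kcnh7, Kcnb2, Kcnj5), oligodendrocyte precursor-like cells (Kcnip3, Kcnh8), choroid plexus-like cells (Kcne2, Kcnj13), pericyte-like cells (Kcnj12, Kcnj8), endothelial-like cells (Kcnq1), fibroblast-like cells (Kcnk5) and microglia-like cells (Kcnk6).

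Among the voltage-gated pore subunits, Kv7 genes divided the principal neurons. Kv7 channels carry the M current, which holds back repeated firing. Kcnq5 stood at 33.4 and 36.6 per 10000 in CA3-like neurons and at 0.597 and 0.574 in dentate granule-like neurons, its lowest class. Cajal-Retzius-like cells followed CA3-like neurons at 21.7 and 21.9, close to the open-subtype pyramidal-like neurons at 21.6 and 16.9. The dentate value was low in the main granule cluster (0.474 and 0.446) and higher in a small granule cluster, of which 14.8% of cells were called doublets (3.68 and 3.63). Kcnq3, which forms channels together with other Kv7 subunits, was highest outside neurons: it reached 12.8 and 12.8 in mature oligodendrocyte-like cells, above its highest neuronal level (9.65 and 6.71 in CA1-like neurons), and each of the 3 oligodendrocyte clusters held it at 13 and 12.8, at 12.6 and 13.5 or at 10.0 and 9.75. The oligodendrocyte levels were 199.7% and 254% of the gene's neuronal mean, where the free RNA yardstick was 32.5% and 31.1%. Kcnq1, known from heart and epithelia, was listed at 0.707 and 0.740 in endothelial-like cells.

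Kv3 channels switch off fast and let neurons fire at high rates. Kcnc1 was highest in interneuron-like cells (3.19 and 3.90), with CA3-like neurons next (1.30 and 1.61). Kcnc2 had 3 high classes: interneuron-like cells at 18.4 and 18.6, Cajal-Retzius-like cells at 10.4 and 11.5 and CA3-like neurons at 7.09 and 7.58. It was at 0.142 and 0.190 in dentate granule-like neurons. Kcnc4 was highest in dentate granule-like neurons at 0.486 and 0.567.

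Kcnb2, a delayed rectifier of the Kv2 family, and Kcnh7, one of the ether-a-go-go-related genes (Kv10 to Kv12), set Cajal-Retzius-like cells apart. Kcnb2 stood at 48.2 and 52.6 there, and its next classes were open-subtype pyramidal-like neurons (13.7 and 11.5) and immature neuron-like cells (12.6 and 13.1). Kcnh7 stood at 50.3 and 56.8 in Cajal-Retzius-like cells and at 22.7 and 17.1 in CA1-like neurons, but at 0.511 and 0.491 in CA3-like neurons. Kcnh1 was high in dentate granule-like neurons (3.15 and 2.85), in CA3-like neurons (3.0 and 2.89) and in choroid plexus-like cells (3.93 and 1.92). Kcnh5 was shared by open-subtype pyramidal-like neurons (1.88 and 2.33) and oligodendrocyte precursor-like cells (1.72 and 2.44), and Kcnh8 was highest in the precursor-like cells (3.02 and 2.73). Kcnh3 was highest in open-subtype pyramidal-like (1.14 and 1.04) and CA1-like neurons (1.10 and 0.772). Kcnh2 and Kcnh4 stayed under 0.3 per 10000 in every class.

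Kv4 channels carry the A-type current of dendrites and are assembled with KChIP proteins and with Dpp6 or Dpp10. Kcnd2 stood at similar levels in oligodendrocyte precursor-like cells (39.3 and 35.3), CA1-like neurons (35.2 and 31.6) and dentate granule-like neurons (30.2 and 27.6). Kcnd3 likewise had precursor-like cells (6.12 and 5.08) and dentate granule-like neurons (5.60 and 5.42) as its highest classes and CA1-like neurons near its lower end (1.30 and 1.73). The 4 KChIP genes each had their own pattern. Kcnip4 was highest in dentate granule-like neurons (117 and 102), followed by CA1-like neurons (95.6 and 85.3). Kcnip3 was highest in precursor-like cells (10.9 and 7.07), with subicular or cortical-like neurons next (3.13 and 2.98). Kcnip1 was highest in interneuron-like (6.35 and 5.13) and Cajal-Retzius-like cells (6.07 and 4.81), and Kcnip2 in CA3-like (1.56 and 1.49), dentate granule-like (1.42 and 1.36) and CA1-like neurons (1.26 and 1.11). Mature oligodendrocyte-like cells stood far below the precursor-like cells, at 0.230 and 0.180 for Kcnip3 and at 5.34 and 4.25 for Kcnd2.

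Kv1 channels sit on axons beside the nodes of myelinated fibres. Kcna1 was highest in mature oligodendrocyte-like cells (1.89 and 1.95), ahead of CA3-like (0.774 and 1.06) and dentate granule-like neurons (0.772 and 0.974). Kcna6 was also highest there (1.46 and 1.26), with subicular or cortical-like (0.657 and 0.592) and interneuron-like cells (0.649 and 0.515) next. Kcna2 and Kcna4 were under 0.6 per 10000 in every class. Kcnab1, a cytoplasmic Kv1 partner, was highest in CA1-like neurons (4.06 and 4.43) and next in mature oligodendrocyte-like cells (2.63 and 2.60), and Kcnab2 in CA1-like neurons (1.92 and 1.58). Among the modifiers, Kcng1, Kcng2 and Kcng3 were highest in dentate granule-like neurons, with Kcng2 at 0.867 and 0.768, and Kcns3 in interneuron-like cells (0.948 and 1.31).

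Of the calcium-activated channels, the BK pore gene Kcnma1 ran from 7.79 and 8.79 in immature neuron-like cells to 20.2 and 19.8 in subicular or cortical-like neurons among the neuronal classes. Oligodendrocyte precursor-like cells held 68.5% and 71.5% of its neuronal mean, above the free RNA medians of 23.6% and 26.8%. The range over the 10 transcripts was 17.3 to 38.2% and 17.5 to 79.1%, so the knock-in value lies within it. Choroid plexus-like (15.7% and 24.3%) and mature oligodendrocyte-like cells (22.8% and 29.9%) lay below their medians. Kcnmb2, which inactivates BK channels, stood at 12.5 and 11.2 in interneuron-like cells and at 1.45 and 1.26 in Cajal-Retzius-like cells, its next class. Kcnmb4 was highest in subicular or cortical-like neurons (1.92 and 1.58), with precursor-like (1.04 and 0.978) and CA3-like cells (1.12 and 0.809) next. The small-conductance gene Kcnn2 was near its CA1-like level (6.02 and 6.41) in astrocyte-like cells (6.73 and 6.17), and Kcnn3 was highest in astrocyte-like cells (1.62 and 1.36). The sodium-activated gene Kcnt2 was highest in CA3-like neurons (4.25 and 3.53) and fibroblast-like cells (4.22 and 3.21), and Kcnt1 in fibroblast-like cells (0.795 and 1.01).

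Inward rectifiers divided into a neuronal and a non-neuronal group. The G protein-gated genes Kcnj3 and Kcnj6 were highest in dentate granule-like neurons, at 7.59 and 6.61 and at 8.13 and 7.78. Kcnj5, a G protein-gated gene best known from the heart atrium, was at 0.913 and 0.647 in Cajal-Retzius-like cells and below 0.1 per 10000 in every other class. Kcnj10, the potassium uptake channel of astrocytes, stood at 0.647 and 0.780 in astrocyte-like cells and at 0.630 and 0.694 in mature oligodendrocyte-like cells. Its partner Kcnj16 reached only 0.195 and 0.218 in precursor-like cells and 0.109 and 0.176 in astrocyte-like cells. Kcnj8, the vascular pore of the ATP-sensitive channel, was at 2.11 and 1.48 in pericyte-like cells, where its sulphonylurea receptor Abcc9 was at 7.92 and 6.24; Abcc9 lay below 0.7 per 10000 in every other class. Kcnj12 was also highest in pericyte-like cells (0.768 and 0.867). The 2 pericyte values of each gene rest on 27 and 49 cells.

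In choroid plexus-like cells, which secrete the cerebrospinal fluid, 4 members had their highest level. Kcne2, an auxiliary subunit, was at 2.03 and 2.65 and below 0.1 per 10000 in the other classes. Kcnj13 was at 0.259 and 0.448, Kcnk1 at 1.63 and 2.01 and Kcnh2 at 0.292 and 0.275. Kcne2 stood in both choroid plexus clusters, at 1.57 and 1.82 in one led by Htr2c and Otx2os1 and at 2.37 and 2.91 in one led by Ttr. Kcnk1 was higher in the Ttr cluster (2.31 and 2.32) than in the other (0.694 and 0.982), and Kcnh1 the other way round (8.50 and 6.19 in the Htr2c cluster and 0.616 and 0.614 in the Ttr cluster).

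Two-pore channels, which carry the leak current, marked several non-neuronal classes. Kcnk2 was highest in fibroblast-like cells (5.0 and 4.03), Kcnk13 in mature oligodendrocyte-like (2.75 and 3.32) and microglia-like cells (2.0 and 1.96), Kcnk6 in microglia-like cells (0.405 and 0.544) and Kcnk5 in fibroblast-like cells (0.397 and 0.656). The fibroblast values come from different clusters. Kcnk2 was at 6.09 and 5.43 in the cluster led by Bmp6 and Slc6a20a and at 0.101 and 0.110 in the one led by Slc47a1 and Bnc2, and Kcnt1 followed it (0.938 and 1.32 in the Bmp6 cluster, 0.152 and 0.151 in the Slc47a1 cluster). Kcnk5 did the reverse, at 1.77 and 2.30 in the Slc47a1 cluster against 0.0904 and 0.0684 in the Bmp6 cluster. So did Kcnb2, at 16.6 and 24.5 against 2.22 and 1.56. In microglia-like cells Kcnk13 was at 2.29 and 2.14 in a cluster led by Arhgap45, at 2.69 and 2.21 in one led by P2ry12 and at 0.232 and 0.298 in the one led by Cst3 and Tyrobp with ribosomal genes. Kcnk10 was shared by precursor-like cells (1.93 and 1.86), dentate granule-like (1.57 and 1.48) and open-subtype pyramidal-like neurons (1.55 and 1.25). Kcnk9, Kcnk12, Kcnk3 and Kcnk4 stayed under 1 per 10000 in every class.

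The 27 members below the level limit lay between 0.00180 and 0.170 per 10000 in their highest class, as the mean of both libraries. Just below it were Kcnf1 (0.161), Kcnab3 (0.169) and Kcnv1 (0.170), and just above it Kcnj16 (0.207), Kcnh4 (0.240) and Kcnh2 (0.284).

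The interneuron-like cells, which formed 1 cluster of 156 wild-type and 254 knock-in cells, were clustered again without the potassium channel genes and split into a type marked by Lhx6, Nxph1, Sst, Pvalb, Satb1 and Sox6 (43 and 77 cells) and a type marked by Adarb2, Vip, Cnr1, Npas1, Htr3a, Nr2f2 and Calb2 (51 and 59 cells); the rest stayed unnamed. These correspond to the broad division by developmental origin. Within the Lhx6 type, a sub-cluster of 17 and 43 cells was named from Pvalb, Satb1 and Sox6, without Lhx6 or Nxph1. Among 31 members at 0.5 per 10000 or more in 1 of the types, 3 were at least 2-fold higher in the Lhx6 type in both libraries, beside 4.18% of all genes at that level, and 6 in the Adarb2 type, beside 4.35%. Kcnma1 was at 14.5 and 13.9 in the Lhx6 type and at 5.27 and 6.66 in the Adarb2 type. Kcns3 followed the same way, at 0.970 and 1.31 against 0.163 and 0.138, and so did Kcnk3 (0.554 and 0.546 against 0.184 and 0.207). Kcns3 was not a trait of the Lhx6 type alone: the unnamed interneuron-like cells (62 and 118) held it at 1.55 and 1.88. They also carried the marker Nxph1 at 33.2 and 32.2, near the 38.1 and 33.7 of the Lhx6 type. Lhx6 itself was at 0.583 and 0.493 in the unnamed cells and at 0.646 and 0.622 in the Lhx6 type, so it hardly separates them.

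Kcnq5 was the reverse, at 3.32 and 2.26 in the Lhx6 type and 15.9 and 16.7 in the Adarb2 type. Kcnt2 stood at 0.993 and 0.762 against 6.25 and 6.69, Kcnb2 at 4.11 and 2.95 against 12.5 and 13.9 and Kcnn2 at 0.508 and 1.16 against 4.88 and 4.14. Kcnh1 stood at 0.808 and 0.952 against 2.39 and 2.35. Kcnn2 and Kcnh1 were not traits of the Adarb2 type alone. The unnamed interneuron-like cells held Kcnn2 at 4.01 and 4.38 and Kcnh1 at 1.96 and 1.76. Their levels of Kcnq5, Kcnt2 and Kcnb2 lay between those of the named types. Kcnc2 was at 31.9 and 33.5 in the Lhx6 type and 16.6 and 13.3 in the Adarb2 type, and was past 2-fold in the knock-in library alone. Kcnmb2, the leading gene of the whole cluster, was at 15.9 and 12.9 in the Lhx6 type and 8.70 and 7.71 in the Adarb2 type. The 9 genes were past 2-fold in the same direction in both libraries because the rule asks for it.

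**Figure D2:**
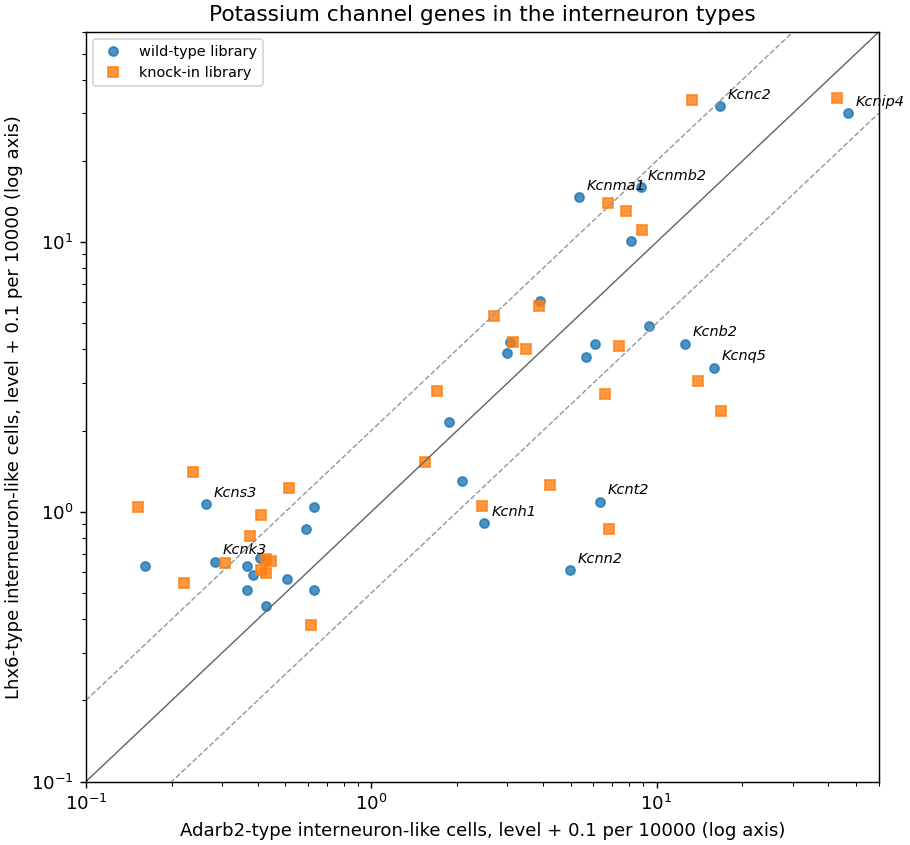
Level plus 0.1 per 10000 of potassium channel genes in the Adarb2 type (horizontal, log axis) and the Lhx6 type (vertical, log axis) of interneuron-like cells, for genes at 0.5 or more in either; circles are the wild-type library and squares the knock-in library, labels stand at the wild-type points, the solid line marks equal levels and the dashed lines 2-fold. Kcnma1, Kcns3 and Kcnk3 lie above the upper dashed line in both libraries, and Kcnq5, Kcnt2, Kcnb2, Kcnn2 and Kcnh1 below the lower one.

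Over all cells, the members as a set differed little between the libraries. The median log2 ratio of knock-in over wild-type was -0.0068 over the 44 members at 0.2 per 10000 or more, beside 0.046 over 7842 genes, and all 44 lay within 0.5 of 0. In single classes the members' median ran from -0.122 in astrocyte-like cells (beside -0.013 over all genes) to 0.285 in choroid plexus-like cells (beside -0.112). In the latter, 19 of 23 members lay above 0. No share over all genes stands beside this count, and it is not read as a result. In this class the free RNA medians were 20.1% and 26.9%, and the Htr2c cluster held 40 of 102 wild-type and 21 of 92 knock-in cells. Whether these bear on the members' median was not tested. The members' median was below that of all genes in every compared class except immature neuron-like and choroid plexus-like cells. No member was past 2-fold over all cells (0 of 16 members at 1 per 10000 or more; 0.193% of genes were higher and 0.0964% lower) or past 1.5-fold at 0.5 per 10000 or more (0 of 29; 0.653% and 0.121%). In single classes, a member counted as past the 2-fold rule when 1 of the libraries had a level of 1 per 10000 or more and 10% or more of its cells above 0. This held for 1 of 244 pairs of member and class in the higher direction, beside 0.609% of all gene and class pairs, and for 4 of 244 in the lower direction, beside 0.407%. The 1.5-fold rule, with a level of 0.5 per 10000 or more, held for 9 pairs of 333 in the higher direction, beside 2.91%, and 10 of 333 in the lower direction, beside 3.32%. The 1.5-fold shares of the members were near the background.

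Kcnq3 was lower in knock-in CA3-like neurons. Its level was 5.74 per 10000 in 339 wild-type cells and 2.54 in 391 knock-in cells, a log2 ratio of -1.15; 0.35% of genes in this class were lower by the same rule and 1.25% by the 1.5-fold rule. Both CA3-like clusters showed it, at 5.75 and 2.58 (314 and 370 cells) and 5.56 and 1.74 (25 and 21 cells). The share of CA3-like cells above 0 was 96.2% (95% interval 93.5 to 97.9%) in the wild-type library and 76.2% (95% interval 71.7 to 80.4%) in the knock-in library, and after thinning every cell to a total of 1000 it was 41.9% (95% interval 36.6 to 47.3%) and 22.8% (95% interval 18.7 to 27.2%). Kcnq3 was lower in the knock-in library in 15 of 16 classes, choroid plexus-like cells being the exception. These include endothelial-like and pericyte-like cells, which were too few to compare. No share over all genes stands beside the count, and the classes are not read as separate results. In microglia-like cells Kcnq3 stood at 43.0% and 41.5% of its neuronal mean, near the free RNA medians of 38.5% and 34.7%. In CA1-like neurons it was at 9.65 and 6.71 (log2 ratio -0.52), lower in both CA1-like clusters (6.96 and 4.40, and 10.7 and 8.21), while dentate granule-like neurons (7.39 and 7.03) and mature oligodendrocyte-like cells (12.8 and 12.8) differed by less than 0.1 on the log2 scale. In the same CA3-like cells Kcnq5 was at 33.4 and 36.6.

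**Figure D3:**
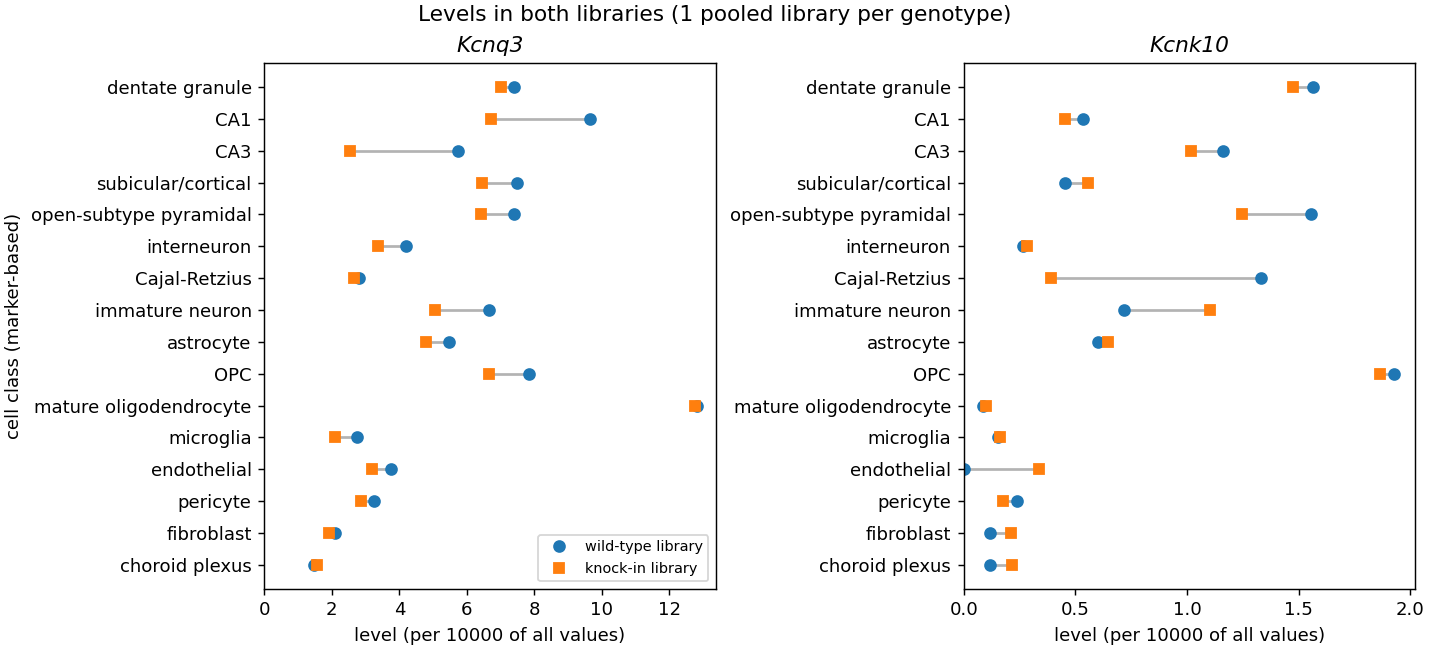
Level of Kcnq3 (left) and Kcnk10 (right) per 10000 of all values in 16 marker-based cell classes; circles are the wild-type library, squares the knock-in library and grey lines join them. The widest Kcnq3 gaps are in CA3-like (5.74 and 2.54) and CA1-like neurons (9.65 and 6.71), and the widest Kcnk10 gap is in Cajal-Retzius-like cells (1.33 and 0.393).

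Kcnk10, a two-pore gene whose channel opens with stretch and fatty acids, was at 1.33 in 62 wild-type and 0.393 in 101 knock-in Cajal-Retzius-like cells, a log2 ratio of -1.54, beside 0.658% of genes lower by the rule. Cells above 0 made up 40.3% (95% interval 28.1 to 53.6%) and 17.8% (95% interval 10.9 to 26.7%), and after thinning 22.6% (95% interval 12.9 to 35%) and 1.98% (95% interval 0.241 to 6.97%). These cells form 1 cluster, and over the 16 classes Kcnk10 was lower in the knock-in library in 7. Kcnab1 (1.05 and 0.589, log2 ratio -0.73) was past the 1.5-fold rule there, where 7.23% of all genes were lower. The 2 genes that mark this class, Kcnb2 and Kcnh7, were not.

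The other 3 differences past 2-fold lay in classes whose clusters took different shares of cells in the libraries. Kcnip1 in subicular or cortical-like neurons was at 3.90 and 1.84 (log2 ratio -1.04, beside 0.241% of genes), but the gene was high in 1 cluster, led by Vwc2l and Cntn6, which held 85 of 209 wild-type and 100 of 372 knock-in cells; within it the level was 9.14 and 6.05. With equal cluster weights in both libraries the log2 ratio was -0.54. Kcnh8 in this class (1.43 and 0.830, past 1.5-fold beside 1.52% of genes) went the same way, with 3.39 and 2.64 in that cluster. Kcnc2 in open-subtype pyramidal-like neurons was at 0.539 and 1.43 (log2 ratio 1.26, beside 1.33% of genes higher). A cluster led by Unc5d, with 135 of 391 wild-type and 512 of 787 knock-in cells, held 0.794 and 1.90, so the gene differed within it too. The other 2 clusters held 0.421 and 0.582 (led by Fn1) and 0.386 and 0.385 (led by Sgcz and Vwc2l). With equal cluster weights Kcnc2 stayed past the 1.5-fold rule. Without the Unc5d cluster the log2 ratio was 0.30, and with 15 principal components Kcnc2 was no longer past that rule either. Kcnt2 was past 1.5-fold in this class, at 1.37 and 2.80 (beside 3.31% of genes), and was at 2.31 and 3.70 within the Unc5d cluster. Kcnh1 was too, at 1.18 and 1.98 in the class and 2.21 and 2.63 within that cluster. Kcnh1 in choroid plexus-like cells was at 3.93 and 1.92 (log2 ratio -1.0, beside 2.27% of genes lower by 2-fold and 18.6% by 1.5-fold). Its cluster, led by Htr2c, held 40 of 102 wild-type and 21 of 92 knock-in cells, and with equal cluster weights the log2 ratio was -0.37.

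**Figure D4:**
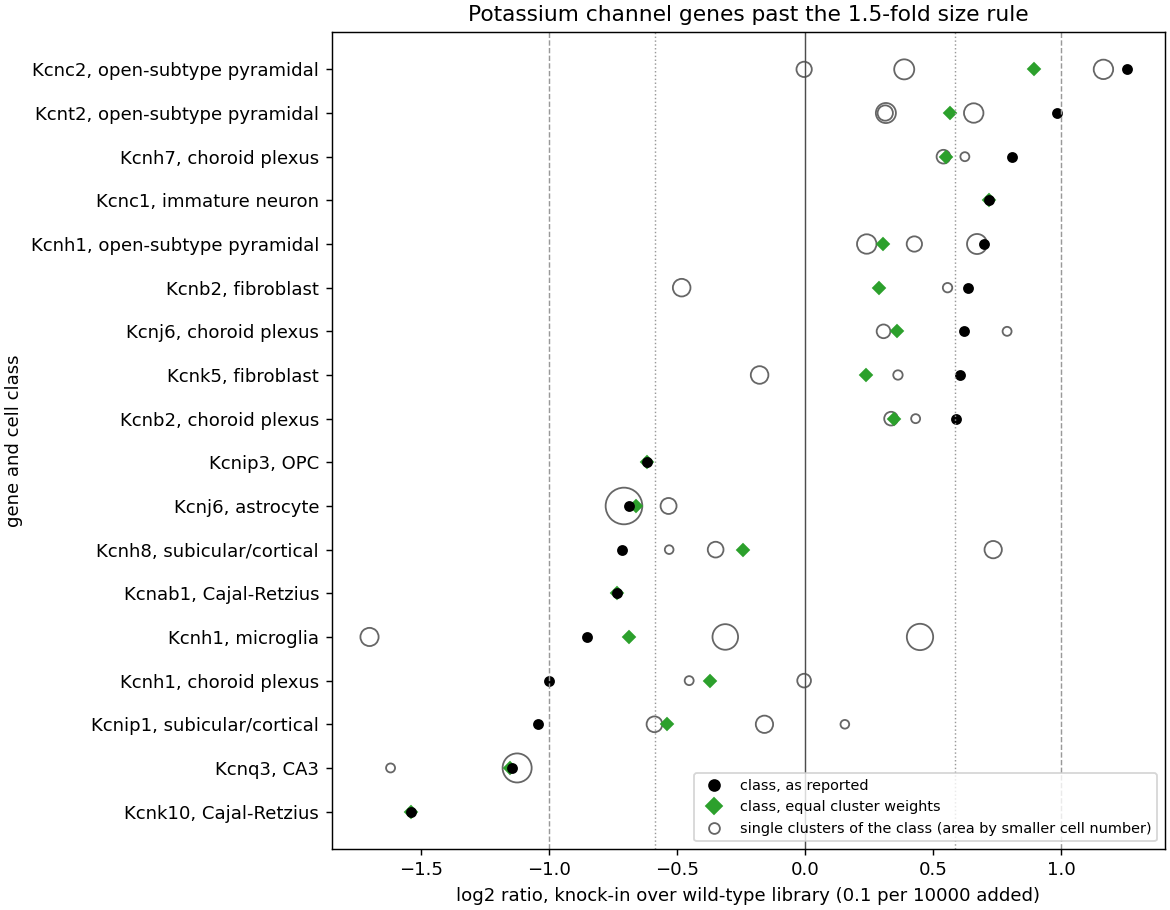
Log2 ratio of the knock-in over the wild-type library for 18 pairs of potassium channel gene and cell class past the 1.5-fold rule: black points are the class, green diamonds the class with equal cluster weights in both libraries, and open circles its single clusters with 15 or more cells in each library, with area growing with the smaller cell number; dotted and dashed lines mark 1.5-fold and 2-fold. Kcnq3 in CA3-like neurons keeps its place in both clusters, whereas Kcnh1, Kcnip1 and Kcnb2 lie nearer to 0 with equal weights.

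In glia and other classes, the 1.5-fold rule named further members. Kcnip3 was at 10.9 and 7.07 in oligodendrocyte precursor-like cells, which form 1 cluster (log2 ratio -0.62, beside 0.697% of genes lower), while 90.5% (95% interval 85.7 to 94.1%) and 90.3% (95% interval 86.4 to 93.4%) of the cells were above 0. Kcnj6 in astrocyte-like cells was at 0.970 and 0.566 (log2 ratio -0.69, beside 1.06%), lower in both main astrocyte clusters (0.824 and 0.466, and 1.84 and 1.24). These levels are 29.3% and 17% of the mean of the neuronal classes, where the free RNA yardstick was 23.7% and 22.0% and the range over its 10 transcripts 11.6 to 39.1% and 14.5 to 78.9%; they lie within the range of free RNA. Kcnh1 in microglia-like cells was at 0.532 and 0.250 (log2 ratio -0.85, beside 1.81%), with most of the difference in the cluster with ribosomal genes (1.58 and 0.417), whose cells had a median of 1.85% mitochondrially encoded values against 1.03% and 0.598% in the other 2 microglia clusters. With equal cluster weights the call was lost, and over the alternatives the ratio went up to -0.13. The class levels were 35% and 16.6% of the neuronal mean, below the yardstick medians of 38.5% and 34.7%. Kcnb2 and Kcnk5 were higher in knock-in fibroblast-like cells, at 4.85 and 7.59 for Kcnb2 and 0.397 and 0.656 for Kcnk5, beside 3.73% of genes; the Slc47a1 cluster that holds both made up 24 of 133 wild-type and 87 of 335 knock-in cells. In choroid plexus-like cells Kcnh7 (1.21 and 2.19), Kcnj6 (0.562 and 0.918) and Kcnb2 (1.10 and 1.71) were higher in the knock-in library, beside 6.97% of genes. They stood at 8.09% and 13.9%, 17% and 27.6% and 8.05% and 12.9% of their neuronal means, within the range of free RNA or below it, where the medians were 20.1% and 26.9%, and with equal cluster weights none was past the rule. In immature neuron-like cells Kcnc1 was at 0.679 and 1.18, beside 7.41%. No member was past the 1.5-fold rule in 4 classes, where these shares of all genes were: 0.626% higher and 0.175% lower in dentate granule-like neurons, 0.992% and 0.392% in CA1-like neurons, 1.4% and 0.585% in interneuron-like cells and 1.91% and 0.656% in mature oligodendrocyte-like cells.

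Genes that work with these channels but carry other names were given as 2 lists, 29 channel partners and 16 genes of potassium pumping and cotransport. Of these, 11 to 16 partners and 3 to 5 pump genes per class met the level limit of the 2-fold rule, and none was past it. By the 1.5-fold rule, Dpp10, a Kv4 partner, was higher over all cells (1.99 and 3.14, beside 0.653% of genes). It is among the leading genes of the Unc5d cluster. The open-subtype class with that cluster made up 391 of 7094 wild-type and 787 of 8836 knock-in cells. Whether this share moves the value over all cells was not tested. In the classes with high Dpp10 the gene was not past the rule. Its log2 ratios were -0.13 in interneuron-like, -0.04 in precursor-like, 0.44 in open-subtype pyramidal-like and 0.29 in subicular or cortical-like cells. Dpp10 was past the rule in CA3-like neurons (0.628 and 1.10, beside 1.51%), where its level was low. It was also past the rule in astrocyte-like (0.218 and 0.512, beside 1.55%) and choroid plexus-like cells (0.324 and 0.757, beside 6.97%). There it stood at 4.87% and 10.0% and at 7.24% and 14.8% of its neuronal mean, below the medians for free RNA in both. Kctd16 was lower in Cajal-Retzius-like cells (3.37 and 1.95, beside 7.23%). Adam23 was lower in microglia-like cells (0.749 and 0.456, beside 1.81%), at 41.5% and 30.5% of its neuronal mean, near the free RNA medians of that class. In choroid plexus-like cells Lgi1 was lower (1.29 and 0.780, beside 18.6% of genes), and Pex5l (1.33 and 2.32) and Dpp6 (1.18 and 1.97) were higher, the last 2 at 22.1% and 37.2% and at 14.5% and 27.1% of their neuronal means, within the range of free RNA. Of the pump genes, Atp1b3 was higher in Cajal-Retzius-like cells (0.171 and 0.578, beside 5.65% of genes), Atp1b1 in immature neuron-like (0.753 and 1.26, beside 7.41%) and fibroblast-like cells (0.868 and 1.46, beside 3.73%), and Atp1b2 in fibroblast-like cells (0.249 and 0.501). Cntnap2, which clusters Kv1 channels on axons, was highest in Cajal-Retzius-like cells (115 and 115). Dpp10 was highest in interneuron-like cells in the wild-type library (14 and 12.8). Open-subtype pyramidal-like neurons (9.43 and 12.8) were level with them in the knock-in library. Subicular or cortical-like neurons (8.24 and 10.1) and precursor-like cells (8.64 and 8.38) came next. Dpp6 was at 11.7 and 10.7 in precursor-like and 12.5 and 11.5 in dentate granule-like cells, the classes highest in Kcnd3. Interneuron-like cells held Dpp6 at 11.6 and 9.89.

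Promoter windows of 300 bases around the start (RefSeq, GRCm38.p6) were matched by symbol for 64 of the 89 members, with 89 windows. The motif GGGCGG (known as the GC box) was found on either strand in 50.6% of the members' windows and 35.7% of 32851 windows of all genes, and the motif TATAAA (known as the TATA box) in 4.49% and 13.6%; a match is a description and no site. Windows of 2 members with a class preference are shown because they differ in these motifs, in capitals: the interneuron-preferring Kcnc1 (chr7:46396218-46396517, plus strand), with 41 CG dinucleotides, and the choroid plexus-preferring Kcnj13 (chr1:87394680-87394979, minus strand), with 5.
Kcnc1: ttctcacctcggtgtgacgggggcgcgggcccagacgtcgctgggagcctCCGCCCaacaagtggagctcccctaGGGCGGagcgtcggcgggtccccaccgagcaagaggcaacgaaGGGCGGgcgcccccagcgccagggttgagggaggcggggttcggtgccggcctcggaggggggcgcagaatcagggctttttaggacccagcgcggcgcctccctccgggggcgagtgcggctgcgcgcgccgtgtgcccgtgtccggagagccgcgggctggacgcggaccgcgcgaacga
Kcnj13: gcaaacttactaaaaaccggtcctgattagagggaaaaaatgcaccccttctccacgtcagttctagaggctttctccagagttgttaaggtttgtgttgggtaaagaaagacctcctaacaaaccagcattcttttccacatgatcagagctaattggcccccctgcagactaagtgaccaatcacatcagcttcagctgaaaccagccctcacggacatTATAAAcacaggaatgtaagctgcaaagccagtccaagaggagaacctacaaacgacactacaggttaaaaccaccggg
The Kcnc1 window holds GGGCGG or its reverse complement and no TATAAA, and the Kcnj13 window the reverse.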

How the data were processed

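Both libraries were analysed from 1 deposited table of genes by cells. Its values are a score: whole numbers that the authors had corrected for sequencing depth per cell, going by the form of the deposited values, so they are no raw counts and the original depth is not kept. Seurat 3.0.0 and the build GRCm38 are listed per the submitters' processing notes; the aligner and the cell filter are not given in the sources used here. Per the labels' protocols, libraries were made with 10x Chromium chemistry version 3.

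Cells were clustered with scanpy 1.11.5 on 2000 variable genes without the potassium channel genes and sex-linked genes (30 principal components, 15 neighbours, Leiden resolution 1). No cell was left out; 61 wild-type and 209 knock-in cells called by Scrublet as doublets were kept and left out in an alternative. Classes were named where 3 or more fixed markers were in 25% of cells and 1.5-fold higher, by a rule set after the clusters were seen; 4 clusters with 328 and 418 cells stayed unnamed, and ependymal-like cells (18 and 14) gave no level. Log2 ratios are knock-in over wild-type with 0.1 per 10000 added. With 1 library per genotype there is no test and no p-value. Shares carry exact Clopper-Pearson intervals. The genes and lists were chosen with earlier results of these data known. Genes are named with values where they reach 1 per 10000 in some class, pass a size rule or have a class preference, and a few others by family. Some members, partner genes and sequences are not reported here, singly or in the figures; they stay in the counts.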

Additional observations from a re-analysis of the deposited data

Results flagged for a closer look

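Kcnh1 was past the 1.5-fold rule in opposite directions in different classes: its log2 ratio was 0.70 in open-subtype pyramidal-like neurons, -0.85 in microglia-like cells and -1.0 in choroid plexus-like cells. With equal cluster weights none of these was past the rule, and over the alternatives they came as near to 0 as 0.21, -0.13 and -0.37; the microglia level was below the free RNA median. Kcnj6 was likewise at -0.69 in astrocyte-like cells and 0.62 in choroid plexus-like cells. Both levels lie within the range of free RNA, and the choroid plexus difference was lost under 4 of 11 alternatives. The difference between classes was not tested, since each genotype is 1 library.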

How the results depend on the processing

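Of the 19 pairs past the 1.5-fold rule, Kcnq3 in CA3-like neurons and Kcnk10 in Cajal-Retzius-like cells stayed past it under each of the 11 alternatives, and 0 pairs reversed. Kcnc1 in immature neuron-like cells had a value under 10 of them. Not every alternative could change a given pair. Leaving out the Unc5d cluster touches neither CA3-like nor Cajal-Retzius-like cells. Equal cluster weights cannot move Kcnk10 in Cajal-Retzius-like cells, which form 1 cluster. With equal cluster weights 2 pairs were past 2-fold (5 as reported) and 10 past 1.5-fold (19 as reported). Only 8 of these 10 were among the 19 reported pairs, and the other 11 reported pairs were no longer past the rule. With a pseudocount of 0.5, 2 pairs were past 2-fold and 9 past 1.5-fold, and 8 members had a class preference (15 as reported). With values of 1 set to 0, 30 pairs were past 1.5-fold. Of the 15 class preferences, 6 (Kcnb2, Kcne2, Kcnip3, Kcnj5, Kcnj8 and Kcnmb2) were kept under all 11. The median log2 ratio of -0.0068 became -0.051 with equal weights, -0.037 with values of 1 set to 0, -0.052 when centred on all genes, and -0.076 without the Unc5d cluster, an alternative chosen after seeing the data. The cause was not tested. No paired analysis was possible because each genotype is 1 pooled library. The original depth of the cells is unknown, so the limit it sets on low genes cannot be given.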

Other observations

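Some potassium channel genes stood higher in cells outside the named classes. Kcnn3 was at 2.0 and 1.58 per 10000 in an unnamed cluster with Lef1, Ebf2 and Otx2os1 among its leading genes (81 and 212 cells, wild-type first), above its highest named class, astrocyte-like cells (1.62 and 1.36). Kcnn4, an intermediate-conductance calcium-activated channel gene known from blood cells, was at 0.209 and 0.435 in an unnamed cluster of 24 and 40 cells led by S100a9, S100a8 and Cd74, genes of myeloid and antigen-presenting cells, and stayed below the level limit in every named class.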
